A study of Mus musculus with 149 samples.

Results

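Single liver cells of 1 mouse were captured in microfluidic traps of different width, and the cells described here are those in which added spike-in RNA took less than 50% of the measured signal. They number 83 of 149 cells: 64 of the 80 from large traps (17 to 25 µm), 7 of the 30 from medium traps (10 to 17 µm) and 12 of the 39 from small traps (5 to 10 µm). The 19 cells from medium and small traps, together the smaller traps, were compared with the 64 from large traps, and then separately. The spike-ins are the ERCC set, synthetic RNAs that were in the lysis mix, and their share was read from the same table as the genes. The cells were chosen by that share, so its level is a description of them.

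All cells came from isolated primary hepatocytes of a wildtype male C57BL/6 mouse of 8 weeks with no treatment named, whose liver was perfused with a digestion medium and whose hepatocytes were enriched by slow spins. Capture was on the Fluidigm C1 system, which holds 1 cell per trap. The labels name no second animal and no run or date for a trap size, so 1 chip per size is assumed. Trap size and chip cannot be told apart, cells are not replicates of a size, and no p-value is given. Differences of at least 2-fold between group means are called higher or lower as a rule of size only.

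Hepatocytes are the main cells of the liver. They make most proteins of blood plasma, store and release glucose, detoxify ammonia and break down drugs with cytochrome P450 enzymes. Their work is divided along the lobule, the small unit in which blood flows from the portal tract to the central vein. Periportal hepatocytes make urea and glucose and express Cyp2f2, pericentral ones express the P450 enzyme Cyp2e1, and a thin layer around the central vein makes glutamine with Glul. Many hepatocytes are polyploid, and cell size differs between them. The sinusoids between them hold endothelial cells and Kupffer cells, the resident macrophages, both smaller than hepatocytes.

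The cells fell into 2 separate ranges of spike-in share, shown in the plot of spike-in share against genes detected. One range ran from 1.24% to 6.69% and held 57 large-trap, 4 medium-trap and 4 small-trap cells. The other ran from 20.1% to 48.98% and held 7 large-trap, 3 medium-trap and 8 small-trap cells. Thus 11 of the 19 smaller-trap cells (57.9%) and 7 of the 64 large-trap cells (10.9%) were in the upper range. The cells were chosen by this share, and the limit of that choice cuts off the upper range. These counts therefore describe the chosen cells and support no difference between trap sizes. Intervals given below on shares of cells are exact 95% binomial intervals and cover counting error only. They treat cells as independent, and cells are not replicates of a trap size.

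The 2 ranges also differed in the number of genes with a value above 0. In the lower range the median was 7652 genes in large traps (5711 to 8819) and 7724.5 in smaller traps (7107 to 8543), so the 8 smaller-trap cells lay inside the spread of the 57 large-trap cells. In the upper range the median was 6120 genes in large traps (2350 to 6846) and 4040 in smaller traps (2413 to 6715). The summed deposited values of a cell, spike-ins included, had a median of 1805390 in large-trap cells of the lower range and 5542320 in those of the upper range, so the deposited scaling itself differed between the ranges. Every cell was therefore rescaled to a sum of 1000000 over its genes, and all values below are on that scale. The read depth of a cell is unknown, since the deposited values were already normalised.

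**Figure D1:**
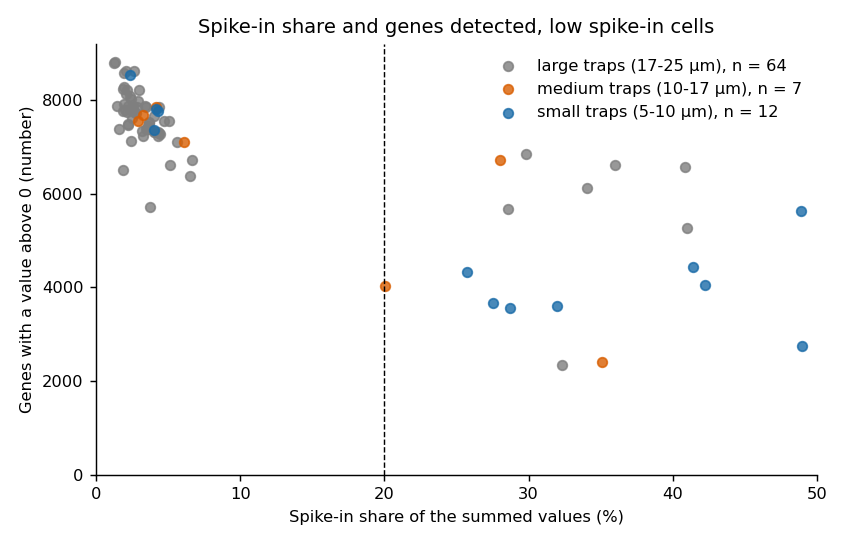
Spike-in share of the summed values (x axis, percent) and number of genes with a value above 0 (y axis) for each of the 83 cells; each point is a cell, coloured by trap size, and the dashed line marks 20%. Most large-trap cells sit at the upper left below 6.69%, and 11 of the 19 smaller-trap cells sit right of the line, mostly with fewer genes.

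The cells nearest the 50% limit were small-trap cells 39 and 26 inside it (48.89% and 48.98%) and small-trap cell 18, medium-trap cell 1 and large-trap cell 31 outside it (50.4%, 52.1% and 52.4%).

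The label of hepatocyte was checked against Alb, which encodes albumin, the main plasma protein (chromosome 5, 90460897 to 90476602, mm10). Alb was above 0 in all 83 cells, at 2183 to 36987 in large traps (median 20172), 9733 to 70973 in medium traps (median 27847) and 748 to 57678 in small traps (median 30886). Most cells thus carried a strong hepatocyte signal, and the 2 lowest values were in small-trap cells 1 and 39, which held markers of other liver cells. Cells with at least 5 markers of another cell type at a value of 10 or more were 7 of 64 in large traps, 0 of 7 in medium traps and 3 of 12 in small traps. A count of 0 among 7 cells allows a share up to 40.96% (exact 95% interval).

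Small-trap cell 1 carried the markers of a Kupffer cell: 20 of the 21 listed Kupffer cell and macrophage markers were at 10 or more, with a summed value of 56418. Clec4f, a lectin receptor that defines Kupffer cells, was 7443 there, Cd5l, a protein secreted by macrophages, was 2998, and Lyz2, lysozyme, was 5830. Its Alb value of 748 was the lowest of the 83 cells, and its Apoa1 value was 21.2. In all 64 large-trap cells Clec4f, Cd5l and the cytokine gene Il1b were listed at 0. Outside small-trap cell 1, Clec4f and Cd5l were above 0 in a few smaller-trap cells at 7.86 or less, and no other cell had more than 3 of the listed markers at 10 or more.

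Small-trap cell 39 carried endothelial markers, with 25 of the 27 matched genes at 10 or more and a sum of 37067. Dnase1l3, a secreted nuclease of sinusoidal endothelium, was 17826, Clec4g, a lectin of the same cells, was 2600, and Kdr, the main receptor for vascular endothelial growth factor, was 2061. Alb was 2024 in that cell. Large traps held cells of the same kind: large-trap cells 7 and 64 had 25 and 24 endothelial markers, sums of 34982 and 43635, and Alb at 3202 and 3773. Large-trap cells 28, 46 and 48 had 16, 13 and 17 endothelial markers with lower sums of 833, 1004 and 1870, and Alb between 8086 and 24045. Whether those 3 hold more than 1 cell was not tested, and no doublet caller was run.

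The other marked cells held genes of bile duct cells (cholangiocytes). Large-trap cell 24 had 11 such markers with a sum of 9342, including Spp1, osteopontin, at 6698, beside Alb at 34881. Large-trap cell 11 and small-trap cell 30 reached the limit with 5 cholangiocyte markers each and otherwise had high Alb (32566 and 26640). The 57 large-trap cells of the lower spike-in range had 1 to 5 such markers (median 3), so these 2 cells were at the edge of that spread. Large-trap cell 71, with 4 cholangiocyte markers, was under the limit and had the highest sum of the compared cells, 11709. Stellate cell markers reached 10 or more at most for 3 genes in any large-trap cell and 2 in any smaller-trap cell.

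**Figure D2:**
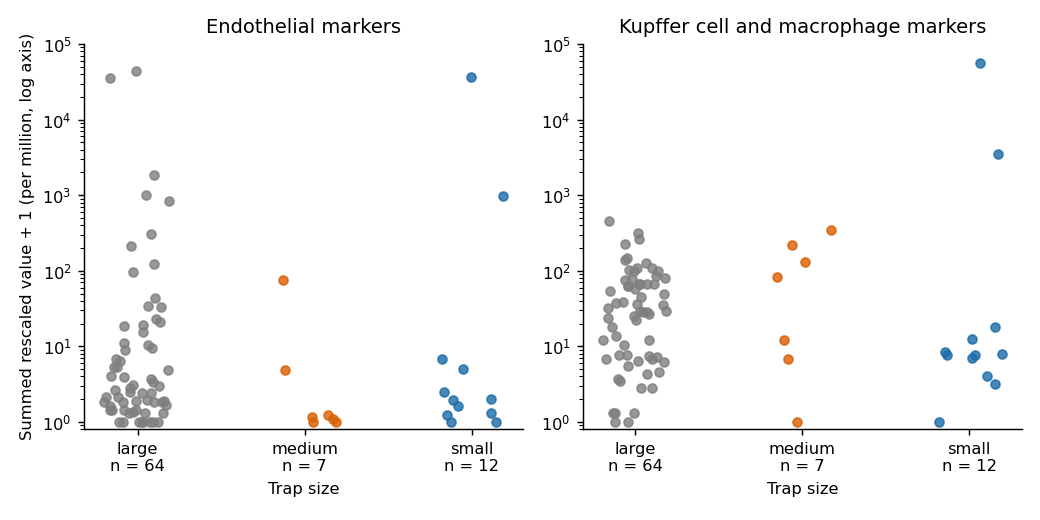
Summed rescaled values of the endothelial markers (left) and of the Kupffer cell and macrophage markers (right) in each of the 83 cells, plus 1, on log axes, by trap size (64 large, 7 medium, 12 small); each point is a cell. Endothelial sums of 34982 or more occur in 2 large-trap cells and 1 small-trap cell, and the highest Kupffer sum, 56418, is in 1 small-trap cell.

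Across the 5504 genes with a mean of at least 10, 1451 (26.4%) were higher and 535 (9.72%) lower in the smaller traps, with a median log2 ratio of 0.10. Ratios here are log2 of smaller-trap mean over large-trap mean, with 1 added to each mean. The balance of directions depended on how cells were summarised. With means of log2 values 27 genes were higher and 2131 lower (median -0.79), and with medians over cells 39 were higher and 2392 lower (median -0.79). The scaling mattered as well: median-of-ratios factors gave 2450 higher and 298 lower (median 0.80), and the deposited values 2458 and 989 of 7396 genes (median 0.35).

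The medium-trap cells had 694 genes higher (14%) and 709 lower (14.3%) of 4964. The small-trap cells had 1733 higher (31.6%) and 996 lower (18.2%) of 5480. Without the 10 cells that held markers of another type (16 against 57 cells), 944 genes were higher (19.5%) and 463 lower (9.55%) of 4847. Leaving out 1 smaller-trap cell at a time gave 1117 to 1510 genes higher, with the lowest count without small-trap cell 1, the Kupffer-marked cell.

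Fewer genes differed within the lower spike-in range. Among cells under 20% (8 against 57), 530 genes were higher (10.7%) and 138 lower (2.78%) of 4964, with a median of 0.20. Leaving out the marked cells of that range as well (7 against 53), 604 were higher (12.1%) and 168 lower (3.36%). For 4002 of the 5504 genes (72.7%) all 8 smaller-trap cells lay within the range of the 57 large-trap cells of that spike-in range. Such a share depends largely on the group sizes, 8 against 57, so it does not show that the groups are alike. Among cells at 20% to 50% (11 against 7), 1714 genes were higher (29.3%) and 2424 lower (41.5%) of 5843, and without the marked cells (9 against 4) 1559 (36.4%) and 1472 (34.4%) of 4279. The same genes were above 0 in 55.4% of cases in those 11 smaller-trap cells, 65.7% in the 7 large-trap cells, and 87.0% and 87.5% in smaller- and large-trap cells under 20%. Spike-in range, number of genes detected and trap size therefore moved together, and their parts in the differences below were not separated except where values are given for each range.

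Genes of pericentral hepatocytes had lower means in the smaller traps, though not at 20% to 50% spike-in. Of 26 measured members of the pericentral list 12 were lower and 1 higher, where 9.72% of all genes were lower, with a median log2 ratio of -0.95 against 0.10 over all genes. It was -1.46 in medium traps (18 of 25 lower), where 14.3% of all genes were lower. In small traps it was -0.54 (9 of 26 lower, 4 higher), where 18.2% of all genes were lower and 31.6% higher. Among cells under 20% spike-in, 12 of 26 were lower and none higher, with a median of -0.81, where 2.78% of all genes were lower. The sum over the list had means of 27380.5, 10077 and 24008 in large, medium and small traps. Its medians were 5127, 4688 and 10696, so by median the small-trap cells were not lower. None of the 30 periportal members was lower and 6 were higher (median 0.20), a share below the 26.4% of all genes.

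Within the pericentral list the largest differences were in genes carried by few cells. Slc1a2, a glutamate transporter of the cells nearest the central vein, was above 0 in 13 of 64 large-trap cells, up to 1206, and no higher than 1.86 in any smaller-trap cell (log2 ratio -5.32). Cyp2a5, a P450 enzyme that metabolises nicotine and coumarin, reached 660 in large traps and 5.37 in smaller traps (-4.38). Cyp2c38, another P450, reached 468 and 12.4 (-4.30). These ratios compare group means, and for all 3 genes the median was 0 in each trap size. All 3 genes passed the filter through the large-trap cells alone. Their direction was then fixed in advance, so they support no difference between trap sizes. The counts of lower pericentral genes over all cells include them.

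Glul, glutamine synthetase, reached 2830 in large traps and 124 in smaller traps, with a log2 ratio of -2.36. It was at 100 or more in 6 of 64 large-trap cells (9.38%, 3.52% to 19.3%) and 1 of 19 smaller-trap cells (5.26%, 0.133% to 26.0%). Cells are not replicates of a trap size, so these intervals do not bear on a difference between trap sizes. The smaller-trap cell at 100 or more was small-trap cell 39, which carried endothelial markers, as did large-trap cell 64 (Glul at 239). No other smaller-trap cell was above 58.5. Ahr, the aryl hydrocarbon receptor, had medians of 10.7, 0.473 and 0.973 in large, medium and small traps (-2.78). Znrf3, a membrane ligase that Wnt signalling induces and that dampens it, had medians of 9.89, 0 and 0.537 (-2.34). It was 1 of 2 lower genes among the 4 measured Wnt targets, whose median was -0.57, where 9.72% of all genes were lower.

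Cyp2e1 (chromosome 7, 140763739 to 140774987) separated cells more than traps. Its values ran from 2.20 to 16313 in large traps (median 50.4), 1.77 to 7077 in medium traps (median 4.15) and 6.09 to 23943 in small traps (median 83.1). Cyp2e1 was at 1000 or more in 24 of 64 large-trap cells (37.5%, 25.7% to 50.5%) and 4 of 19 smaller-trap cells (21.1%, 6.05% to 45.6%): 1 medium and 3 small, of which small-trap cell 39 was the endothelial-marked one. The mean ratio was -0.52 and turned positive with median-of-ratios factors (0.73) and with the deposited values (0.12). Without small-trap cell 13, which held 23943, it was -1.8.

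Cyp2f2 (chromosome 7, 27119909 to 27133660), the periportal counterpart, ran from 0.192 to 4279 in large traps (median 1974), 3.44 to 4319 in medium traps (median 2756) and 1.804 to 3891 in small traps (median 1467). It was at 500 or more in 38 of 64 large-trap cells (59.4%, 46.4% to 71.5%) and 14 of 19 smaller-trap cells (73.7%, 48.8% to 90.9%). Both traps thus held cells of either kind. Medium-trap cell 30, small-trap cell 15 and small-trap cell 13 were of the pericentral kind, with Cyp2e1 at 7077, 5155 and 23943 and Cyp2f2 at 3.44, 12.3 and 4.17.

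The share of Cyp2e1-rich cells can be set beside the pericentral list within each spike-in range. Under 20%, 24 of 57 large-trap cells (42.1%, 29.1% to 55.9%) and 2 of 8 smaller-trap cells (25.0%, 3.19% to 65.1%) had Cyp2e1 at 1000 or more. At 20% to 50% none of 7 large-trap cells did (upper limit 40.96%), against 2 of 11 smaller-trap cells. The pericentral list ran the other way there (median 2.55, 14 of 19 higher), where 29.3% of all genes were higher. Fewer pericentral cells and lower levels per cell were not told apart.

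**Figure D3:**
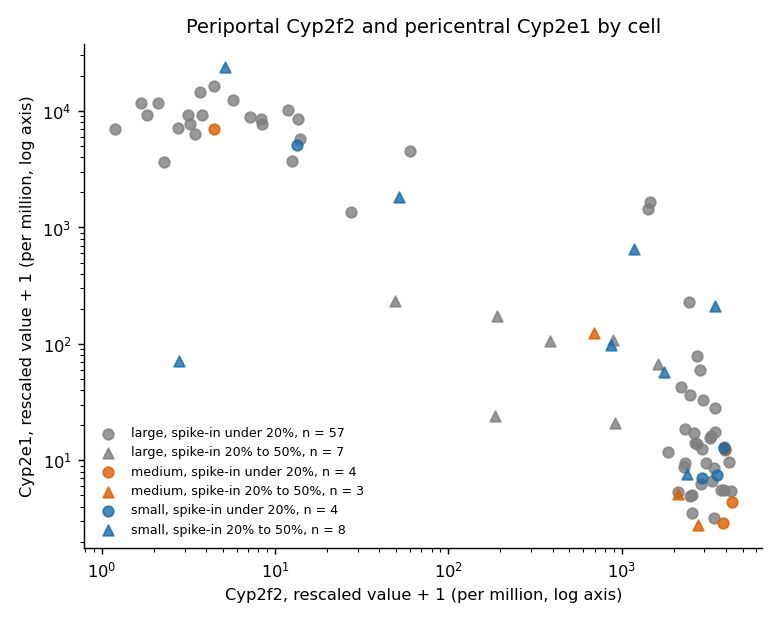
Cyp2f2 (x axis) against Cyp2e1 (y axis) in each of the 83 cells, as rescaled value plus 1 on log axes; colours give trap size, circles cells under 20% spike-in and triangles cells at 20% to 50%. Pericentral cells sit at the upper left and periportal cells at the lower right, and smaller-trap cells occur in both places.

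Single periportal and plasma protein genes were higher in smaller traps, although in neither list was the share of higher genes above the 26.4% of all genes. Pigr encodes the receptor that carries immunoglobulin A across the cell. Its values ran from 3.10 to 1540 in large traps (median 409). They ran from 439 to 3742 in medium traps (median 629) and from 89.1 to 6672 in small traps (median 685). The groups overlapped; a smaller-trap cell was above a large-trap cell in 73.5% of pairs, and the log2 ratio was 1.70. Under 20% the ratio was 0.49, with all 8 smaller-trap cells between 99.1 and 772. Among large-trap cells of that range the lowest Pigr, 3.10, was in cell 32 with Cyp2e1 at 11641. The highest, 800, was in cell 50 with Cyp2e1 at 15.1. The part of zonation in the Pigr ratio was not tested. Ctsc, a lysosomal protease, had a ratio of 1.98, Hsd17b6, a steroid dehydrogenase, 2.25, and Cdh1, E-cadherin of cell junctions, 1.96. That of Cdh1 was 0.09 without small-trap cell 36, which held 1546, and that of Hsd17b6 was -0.23 under 20%.

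Vtn encodes vitronectin, an adhesion protein of plasma (chromosome 11, 78499091 to 78502324). Its values ran from 6.32 to 1445 in large traps (median 667), 848 to 6323 in medium traps (median 1148) and 0.920 to 5704 in small traps (median 1245). The means were 675 ± 303 (SD over 64 cells) and 2242 ± 1959 (SD over 19 cells), a log2 ratio of 1.73, and 80.1% of cell pairs had the smaller-trap cell higher. Under 20% the 8 smaller-trap cells lay between 848 and 1437 and the 57 large-trap cells between 277 and 1342, with a ratio of 0.59. The smaller-trap cells were there in the upper part of an overlapping range.

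Plasma proteins as a list showed 6 of 29 higher and none lower, with a median of 0.13, where 26.4% of all genes were higher, and 1 of 29 higher under 20%, where 10.7% of all genes were. Itih1 and Itih2, chains that bind hyaluronan, had ratios of 2.09 and 2.15, and Plg, plasminogen, 1.40. Plg had medians of 151, 169 and 527 in large, medium and small traps, so the medium traps did not share the difference. Alb had a ratio of 0.65 and Apoa1, the main protein of high-density lipoprotein, 0.56, neither reaching 2-fold. Apoa1 had medians of 10141, 14166 and 11976 in large, medium and small traps, and its ratio under 20% was 0.01.

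Other secreted proteins differed little as groups, where 26.4% of all genes were higher and 9.72% lower. Among 19 apolipoprotein genes 3 were higher and none lower (median -0.19), and among 20 complement genes 4 were higher and none lower (median 0.06). C1s, a protease of the classical complement pathway, had a ratio of 1.43 and medians of 135, 169 and 113 in large, medium and small traps, so the higher mean came from single cells of up to 2136. Of 16 coagulation factors 1 was higher and 2 lower (median 0.02), among them F7, factor VII, at -1.31. Of 20 acute phase genes 1 was higher and 2 lower (median -0.02). Apcs, serum amyloid P component, had medians of 580, 360 and 94.0 (-1.02), and under 20% its ratio was -0.20.

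Major urinary proteins, small pheromone carriers that male mouse liver makes in great amount, had a lower list median in the smaller traps, but not at 20% to 50% spike-in. Of 21 measured members 6 were lower and none higher, where 9.72% of all genes were lower, with a median of -0.60 (medium -0.59, small -0.58). Under 20% spike-in the median was -0.40 with 1 member lower, where 2.78% of all genes were lower, beside a median of 0.20 over all genes. Among large-trap cells of that range the highest list sum, 618032, was in cell 37 with Cyp2e1 at 6967. The lowest, 218054, was in cell 50 with Cyp2e1 at 15.1. Cyp2e1-rich cells made up 42.1% of large-trap and 25.0% of smaller-trap cells there, and their part in the list's difference was not tested. At 20% to 50% the list median was 0.26 (-0.14 without the marked cells), with 6 of 20 higher and 3 lower. Over all genes there 29.3% were higher and 41.5% lower, with a median of -0.50, so the higher count was near the share of all genes. The list sum of that range had medians of 156308 in large and 279141 in smaller traps. The list median was below 0 under each rescaling tried, from -0.86 to -0.24. These genes are near-identical copies, so reads can be split between them and single members are uncertain; the sum over the list had medians of 363364, 287050 and 266887 in large, medium and small traps.

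Mup4 (chromosome 4, 59956804 to 59960710) was the most different member. Its values ran from 1.21 to 560 in large traps (median 211), 2.72 to 185 in medium traps (median 58.2) and 0 to 242 in small traps (median 14.7). The means were 227 ± 131 (SD over 64 cells) and 67.1 ± 77.2 (SD over 19 cells), a log2 ratio of -1.74, and 15.3% of pairs had the smaller-trap cell higher. Under 20% the medians were 238 and 147 with a ratio of -0.81. At 20% to 50% the medians were 6.82 and 11.3, and the large-trap cells were divided. Cells 53, 71 and 75 held 70.3, 56.8 and 122.6, above the highest smaller-trap value there, 37.3 in medium-trap cell 21. The other large-trap cells of that range held 6.82 or less, and among them cells 7, 24 and 64 carried markers of another type. Mup8, Mup21 and Mup15 had ratios of -1.34, -1.13 and -1.08. Mup15 was carried by single cells of up to 77602 in large traps and was above 0 in 8 of 19 smaller-trap cells.

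Over both spike-in ranges, more P450 genes were lower than higher, and the P450 list shares genes with the pericentral list. Of 27 measured P450 genes 8 were lower and 1 higher (median -0.26), where 9.72% of all genes were lower and 26.4% higher. Under 20% 6 were lower and 1 higher (median -0.02), where 2.78% of all genes were lower and 10.7% higher. At 20% to 50% the P450 list ran the other way, with 12 of 25 higher and 5 lower (median 0.71). Over all genes there 29.3% were higher and 41.5% lower. Cyp3a11, the main drug-metabolising P450 of the mouse liver, reached 8807 in large traps, 1424 in medium traps and 3789 in small traps (-1.57). Of 18 glutathione transferases 4 were lower and 2 higher (median -0.16), with Gstm2 at -2.20, again a gene of a family of close copies. Of 19 genes of glucuronidation and sulphation 4 were lower and none higher (median -0.49), among them Ugt3a1, a glycosyltransferase, at -1.35. Under 20% none of those 19 passed 2-fold (median 0.08). Of 14 alcohol and aldehyde dehydrogenases 3 were higher and none lower (median 0.04).

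**Figure D4:**
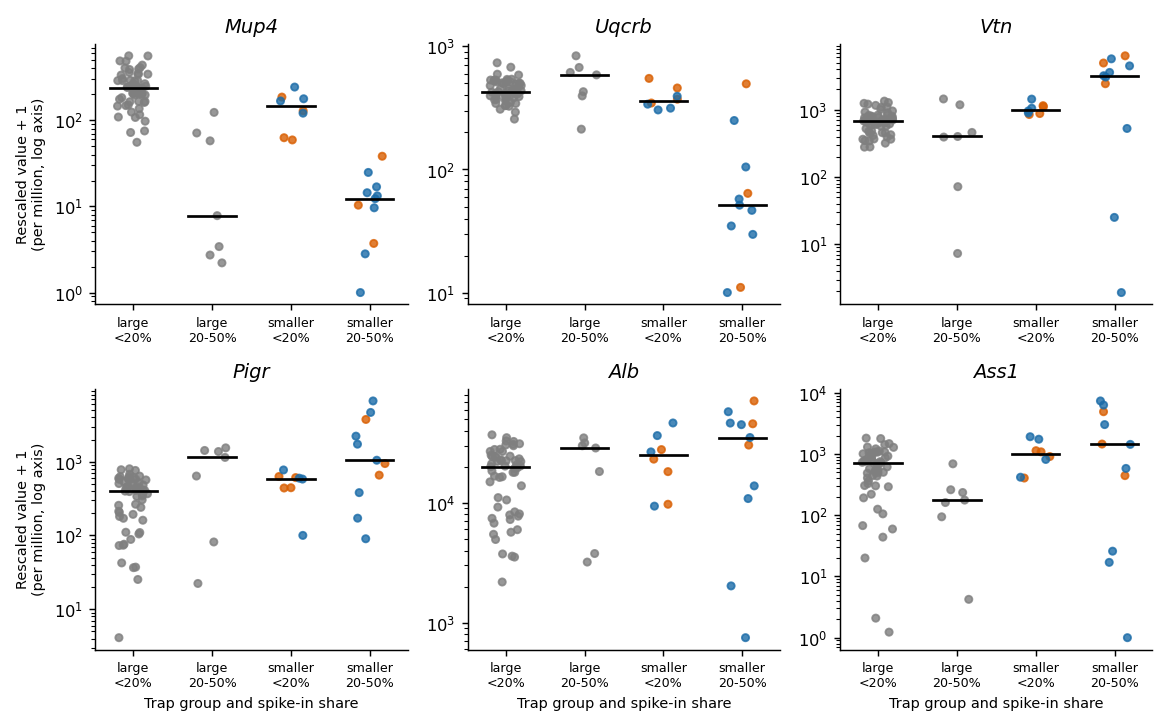
Rescaled values plus 1 on log axes for 6 genes in each of the 83 cells, split by trap group and by spike-in share under 20% or 20% to 50%; points are cells (grey large, orange medium, blue small traps) and bars are medians. Under 20% the smaller-trap cells overlap the large-trap cells for all 6 genes. At 20% to 50% the smaller-trap cells spread over a wider range. The large-trap cells do not for Alb (3202 to 34881, and 2183 to 36987 under 20%). For Uqcrb at 20% to 50% the 7 large-trap cells lie at 211 or more. Of the smaller-trap cells there only medium-trap cell 21 (494) and small-trap cell 39 (249) lie above 104.

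Metabolic lists stayed near the median of all genes, of which 26.4% were higher and 9.72% lower. Of 10 measured urea cycle genes 1 was higher and none lower (median 0.34): Ass1, which joins citrulline and aspartate. Ass1 had medians of 609, 1082 and 1123 in large, medium and small traps and a ratio of 1.49, or 0.61 under 20%. Of 30 genes of amino acid catabolism 1 was higher and 1 lower (median -0.07). The lower one was Oat, ornithine aminotransferase of the pericentral zone, at -1.29, which reached 3664 in large traps and 520 in smaller traps while its median was 0.308 in large, 0 in medium and 13.2 in small traps. None of 10 gluconeogenesis genes passed 2-fold (median 0.00).

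Genes of glycolysis and fat synthesis had 2 of 17 members higher and none lower (median 0.24), where 26.4% of all genes were higher. Fasn, fatty acid synthase, had medians of 26.7, 40.0 and 59.5 in large, medium and small traps and a ratio of 1.71. Pklr, the liver pyruvate kinase, had a ratio of 1.98. Both were also higher under 20%, at 1.25 and 1.5, with Pklr between 14.3 and 110 in the 8 smaller-trap cells and between 0 and 172 in the 57 large-trap cells (medians 35.8 and 7.40). In that range 4 of the 17 members were higher and none lower, where 10.7% of all genes were higher.

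Of 19 cholesterol synthesis genes 3 were higher (median 0.04), and of 23 genes of fatty acid oxidation 4 were higher (median 0.07), none lower in either list. Of 16 bile acid genes 3 were higher and 1 lower (median 0.26), where 26.4% of all genes were higher and 9.72% lower. The lower one was Cyp7a1, whose enzyme sets the rate at which bile acids are made, at -1.12, which reached 573 in large traps and 264 in smaller traps with medians of 0.510, 0 and 2.84 in large, medium and small traps. Nr0b2, the repressor of that gene in bile acid feedback, had a mean ratio of 2.16 but medians of 18.2, 0 and 7.67, so a few cells of up to 885 set its mean. It was 1 of 4 higher genes among 18 hepatocyte transcription factors, with none lower (median 0.36).

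Lists of inflammation and immediate early genes had positive medians that turned negative without the cells marked as another type. Of 10 measured inflammatory genes 4 were higher and none lower (median 0.99), where 26.4% of all genes were higher and 9.72% lower. The list median was -0.53 without the cells that held markers of another type. Il1b, interleukin 1 beta, was 3790 in small-trap cell 1 and at most 0.667 in every other smaller-trap cell. Nfkbia, the inhibitor that NF-kappaB induces, had a ratio of 1.84 and one of -0.56 without small-trap cell 1. Of 19 immediate early genes 5 were higher and 1 lower (median 0.70, -0.45 without the marked cells); Dusp1, a phosphatase induced by stress, had a ratio of 1.43 and one of -0.14 without them.

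The same held for genes of the actin cytoskeleton, of which 7 of 20 were higher and 3 lower (median 0.40, -0.07 without the marked cells). Tmsb4x, an actin-binding peptide abundant in blood and vessel cells, reached 13046 in small traps and 2340 in large traps (3.42, and -0.64 without the marked cells). Of 19 lysosomal genes 5 were higher and 2 lower (median 0.02), near the 26.4% and 9.72% of all genes. Ctsd, the protease cathepsin D, had a ratio of 1.71, and without small-trap cell 1 it was 0.79. Under 20% it was 1.95, with medians of 42.9 in smaller-trap and 14.98 in large-trap cells (2.09 without the marked cells of that range).

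Of 14 heat shock genes 3 were higher and 2 lower (median -0.11), where 26.4% of all genes were higher and 9.72% lower. Dnajb9, a chaperone of the endoplasmic reticulum, had medians of 66.9, 8.48 and 3.27 in large, medium and small traps (-1.57), and the smaller-trap cell was higher in 17.8% of pairs. Genes of endoplasmic reticulum stress had 2 of 19 higher and 1 lower (median -0.17). Of 14 oxidative stress genes and 11 genes of the growth hormone axis none passed 2-fold (medians -0.20 and 0.04). The p53 list had 2 of 7 higher (median -0.45), the hypoxia list 1 of 6 higher and 1 lower (-0.71), the metallothionein list 1 of 5 higher (-0.67) and the clock list 2 of 7 higher (0.39). Of the cell cycle list only 3 of 22 genes reached the mean of 10, and none of them passed 2-fold.

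**Figure D5:**
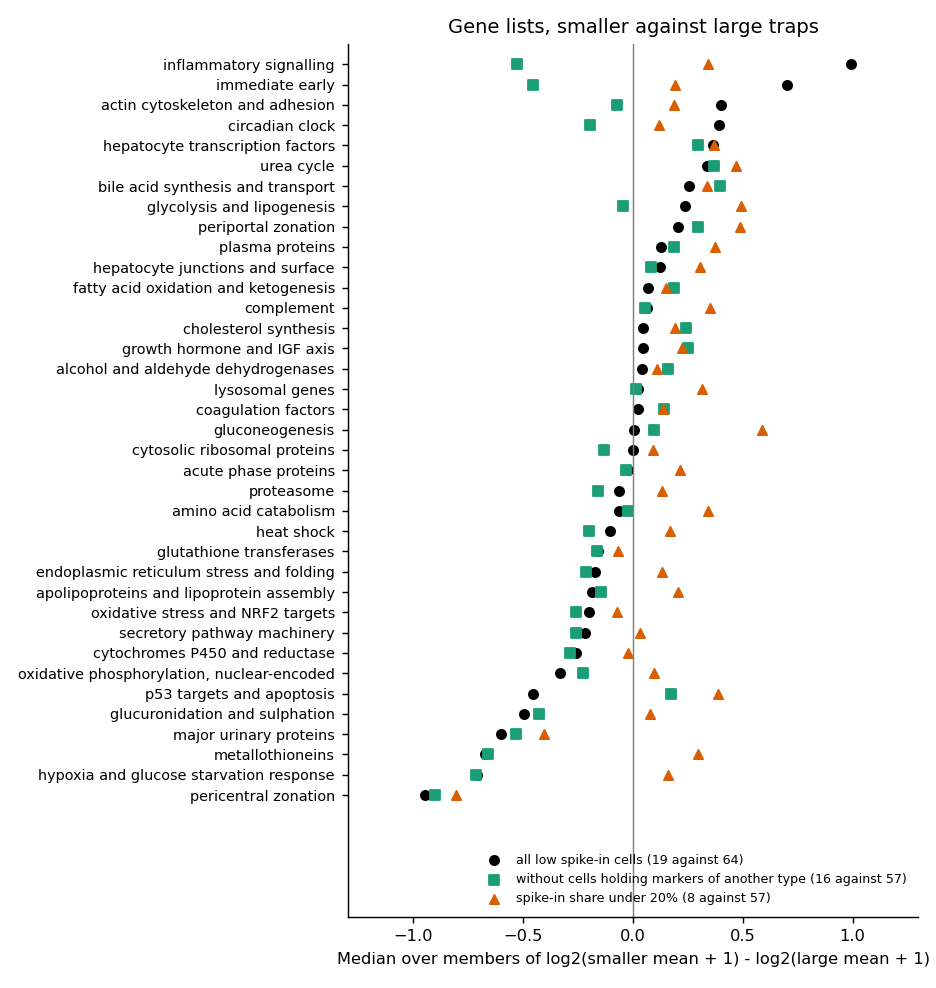
Median over the measured members of each list of log2 of smaller-trap over large-trap mean (x axis), for lists with at least 5 measured members; circles are all 83 cells, squares leave out cells with markers of another type, and triangles are cells under 20% spike-in. The pericentral and major urinary protein lists lie below 0 in all 3 sets, and the inflammatory and immediate early lists move from above to below 0 when the marked cells are left out.

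Among the housekeeping lists, oxidative phosphorylation had a lower median in small than in medium traps over both spike-in ranges together. Nuclear-encoded genes of oxidative phosphorylation, the respiratory chain of mitochondria, had a median of 0.01 in medium traps (3 higher, 1 lower of 76) and -0.68 in small traps (2 higher, 21 lower, where 18.2% of all genes were lower); for both together it was -0.33 with 3 lower. The list median was 0.10 under 20% spike-in with none past 2-fold, and -0.93 with 37 lower at 20% to 50%, where 41.5% of all genes were lower and their median was -0.50. It turned positive with median-of-ratios factors (0.11) and deposited values (0.02). Under 20% the list sum had medians of 14826 in medium and 13104.5 in small traps, and at 20% to 50% of 6037 and 6309. The upper range held 3 of 7 medium-trap and 8 of 12 small-trap cells. Its part in the difference between medium and small traps was not tested. Uqcrb, a subunit of respiratory complex III (chromosome 13, 66900617 to 66905378), had 211 to 834 in large traps (median 430), 10.1 to 547 in medium traps (median 370) and 9.05 to 392 in small traps (median 80.2). Its ratio was -1.03, with the smaller-trap cell higher in 15.7% of pairs. Under 20% the ratio was -0.21, with 8 smaller-trap cells at 303 to 547 inside the large-trap range of 255 to 732. Ndufb3, of complex I, had a ratio of -1.3 and one of -0.12 under 20%.

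Cytosolic ribosomal protein genes had 2 of 78 higher and none lower (median -0.00). Rps9 was 1 of the 2, with a ratio of 1.55 that came from 9624 in small-trap cell 26; without that cell it was -0.19. At 20% to 50% spike-in 41 of the 78 were lower in smaller traps, where 41.5% of all genes were lower. Of 32 proteasome genes 5 were higher and 3 lower (median -0.06), and of 35 genes of the secretory pathway 2 were higher and 2 lower (median -0.22). Of 15 genes of hepatocyte junctions 1 was higher (median 0.12). Over all genes 26.4% were higher and 9.72% lower.

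Outside the lists, the genes lower in both medium and small traps included Uchl5, a deubiquitinase of the proteasome, at -2.50. It was above 0 in 59 of 64 large-trap cells (median 36.1), 3 of 7 medium-trap cells and 4 of 12 small-trap cells, and its ratio under 20% was -1.22. Ugcg, which makes glucosylceramide, was above 0 in 56 of 64 large-trap and 7 of 19 smaller-trap cells, with a ratio of -3.11 and one of -0.81 under 20%. Golga7, a partner of palmitoyl transferases, had medians of 56.3, 18.5 and 6.45 (-1.95).

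Gnptg and Tuba4a were among the genes outside the lists with higher means in both trap sizes. Gnptg, a subunit of the enzyme that tags lysosomal proteins, had a mean ratio of 4.22 with medians of 1.869, 1.201 and 0 in large, medium and small traps. Its high values were 686 in medium-trap cell 10 and 1647 in small-trap cell 31, and under 20% its ratio was -1.14. Tuba4a, a tubulin, had a ratio of 2.71 with a highest value of 4789 in small-trap cell 10, and its ratio under 20% was 0.14.

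The marker lists summed up the other cell types as follows. A marker can pass the filter through the group where it is high alone. Its direction is then fixed in advance, so these counts describe single marked cells and support no difference between trap sizes. Of the Kupffer cell and macrophage list 19 genes were measured and all 19 were higher (median 6.52), where 26.4% of all genes were higher. Without small-trap cell 1 the list median was 0.12, and without all marked cells 1 gene reached the mean of 10. Of the endothelial list 8 of 19 were higher and 3 lower (median 0.71), and without small-trap cell 39 the median was -4.19. In medium traps all 12 measured members were lower (-5.48), where 14.3% of all genes were lower. The list sum had means of 1302 in large and 11.2 in medium traps, so these members passed the filter through the large-trap cells. Of the stellate list 3 of 3 were higher (3.56, -1.86 without small-trap cell 39), and of the cholangiocyte list 2 of 4 were lower (-1.37, 0.04 under 20%). Lymphocyte markers had 1 of 2 higher and 1 lower, and neutrophil and erythroid markers 1 measured gene each, within 2-fold.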

How the data were processed

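RNA of single cells was sequenced after capture in 3 trap sizes. Per the submitters' processing notes, CASAVA 1.8.2, Bowtie 0.12.9 and RSEM 1.2.3 were used with the mm10 build. The authors deposited 1 table of normalised expected counts, treated here as a signal; how it was normalised is not given in the sources used here, and whole reads could not be recovered from it. It holds 20308 gene rows and 92 spike-in rows.

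Cells with a spike-in share under 50% were kept and rescaled to 1000000 over gene rows. A gene was measured when the mean of both group means was at least 10, and called higher or lower at a 2-fold ratio of means plus 1. No test was run: each trap size is 1 sample. The members, lists and limits were chosen with earlier results of these data known. Of 1013 listed symbols 18 were not matched and 6 matched an older symbol; a list of nuclear RNAs was not analysed here, as were mitochondrial genes.

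Genes were named by rule: up to 4 called members per list by size of ratio (2 of highest mean where none was called), 12 per direction outside the lists, with a larger mean of at least 50, above 0 in at least 50% of the cells of the higher group and past 2-fold in medium and small traps, and landmark and marker genes. The text gives the leading ones; Lyz2, Dnase1l3, Clec4g and Spp1 are marker genes. Positions are from GENCODE vM21. The calculation was tested on simulated data. Alternatives covered the pseudocount, summary, scaling, filter, spike-in range, marked cells and single cells. Python 3.11.15 ran the calculation with pandas 2.3.3 and numpy 2.4.6, scipy 1.17.1 gave the exact intervals, and matplotlib 3.10.9 drew the figures.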

Additional observations from a re-analysis of the deposited data

Results flagged for a closer look

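In groups of 4 to 10 cells a value was examined further when its gap to the nearest other cell took up most of the group's range. For values with a normal distribution chance does this in about 1 in 20 groups. Single-cell values such as those of Cyp2e1 are far from that form, so the rate does not hold for them. Among the trap sizes only the medium traps, with 7 cells, were examined by this rule, and 2 of 7 measures met the limit. Apoa1 was 51363 in medium-trap cell 10, a gap of 0.749 of the range. Cyp2e1 was 7077 in medium-trap cell 30, a gap of 0.983 of the range; it was the only medium-trap cell with Cyp2e1 at 1000 or more.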

How the results depend on the processing

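No paired analysis was possible because the comparisons come from no test. Counts of genes higher and lower, 1451 and 535 with all cells, ran from 1117 to 1510 and from 495 to 628 when 1 smaller-trap cell was left out. They became 27 and 2131 with mean log2 values, 39 and 2392 with medians, 2450 and 298 with median-of-ratios factors, 2458 and 989 with deposited values, 530 and 138 under 20% spike-in, and 483 and 83 with a minimum mean of 50. The higher count was 694 in medium traps and 944 without cells holding markers of another type. The lower count was 996 in small traps, 974 in cells of every spike-in share, 205 with a pseudocount of 10 and 1732 with a minimum of 1. Alternatives added after the data were seen gave 2424 lower at 20% to 50% spike-in, 604 and 168 under 20% without marked cells, and 897 higher without cells with at least 20 markers of another type. The causes were not tested, except that fewer genes or cells entered under the stricter filters and subsets.

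Calls that reversed were these. With cells of every share: Znrf3 2.11, Mup15 1.15, Kdr -0.34, Dnajb9 0.92, F7 0.66. With mean log2 values: Oat 0.15, Cdh1 -0.24, Itih2 -0.015, C1s -0.031, Fasn -0.079, Nr0b2 -0.66, Kdr -0.11, Dusp1 -0.30, Nfkbia -0.69, Gnptg -0.074, Ctsd -0.21. With medians: Oat 1.25, Cyp3a11 1.39, Ctsc -0.031, Cdh1 -2.97, C1s -0.0075, Nr0b2 -2.77, Nfkbia -0.67, Gnptg -1.41, Tuba4a -0.024, Cyp7a1 0.22, Ctsd -0.45. In medium traps: stellate list -1.89, Kdr -4.14, Tmsb4x -5.03, Dusp1 -0.075, Nfkbia -0.11, Rps9 -0.18. Under 20%: stellate list -0.92, cholangiocyte list 0.040, Hsd17b6 -0.23, Nr0b2 -0.38, Kdr -2.06, Tmsb4x -1.15, Gnptg -1.14. Under 20% without marked cells: stellate list -0.19, Hsd17b6 -0.039, Nr0b2 -0.36, Kdr -0.21, Tmsb4x -0.048, Gnptg -1.03. At 20% to 50%: Slc1a2 0.16, Oat 6.13, Cyp3a11 4.78, Znrf3 0.93, Mup8 0.14, Mup15 1.60, Cyp7a1 2.55. Without marked cells: stellate list -0.18, Kdr -0.24, Tmsb4x -0.64, Dusp1 -0.14, Nfkbia -0.59. Without cells with at least 20 markers: stellate list -0.90, Kdr -2.0, Tmsb4x -2.91, Dusp1 -0.14, Nfkbia -0.61. With both spike-in ranges weighted equally: stellate list -0.10, Kdr -0.11, Tmsb4x -2.92. Leaving out 1 cell, Nfkbia ranged from -0.56 to 1.92, Rps9 from -0.19 to 1.63, Kdr from -4.19 to 2.62 and the stellate list from -1.86 to 3.63.

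Read depth is unknown, the groups hold 7 and 12 smaller-trap cells from 1 mouse, and a zero in a cell with few detected genes does not show absence.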

Other observations

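Small-trap cell 36 (spike-in share 25.7%) held Slc40a1, the iron exporter of macrophages and hepatocytes, at 3533, Anxa4 at 1017 and Spp1 at 487, with Pigr at 6672 and Alb at 35131. Slc40a1 alone made up its Kupffer list sum of 3533, while Clec4f, Cd5l, Lyz2 and C1qb were at 0 there. These genes were picked after their values were seen.

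The 4 genes Alb, Vtn, Pigr and Ass1 each had their highest value of the 83 cells in a smaller-trap cell with a spike-in share of 20% to 50%: 70973 in medium-trap cell 10 for Alb, 6323 for Vtn, 6672 in small-trap cell 36 for Pigr and 7345 for Ass1. The source of such values was not tested.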
